A study of Homo sapiens with 8 samples.

Results

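Vorinostat (SAHA), an inhibitor of histone deacetylases, was given alone at 10 µM for 24 h to BT-549 cells, and the transcriptome was set against that of cells given the DMSO vehicle. The comparison was chosen by treatment label and holds 4 of the 8 RNA-seq libraries of the series, 2 from vehicle and 2 from vorinostat. BT-549 is an established triple negative breast cancer (TNBC) line, and all cells grew in RPMI medium with 10% FBS. The other 4 libraries came from the same line under EC359, an inhibitor of the leukemia inhibitory factor receptor, at 100 nM for 24 h, without vorinostat (2 libraries) or with it at 10 µM (the combination, 2 libraries). They served as a second measurement of the vorinostat effect in libraries that the comparison with vehicle does not use. The study used these libraries to ask how EC359 adds to the action of HDAC inhibitors (HDACi), and the comparison described here gives the effect of the HDACi by itself. Nothing in the labels says that libraries of a group came from separate cultures, so the p values measure the spread between these libraries only. A single line, dose and time were measured.

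Histone deacetylases (HDACs) remove acetyl groups from lysines of histones and of many other proteins, and acetyltransferases add them. Acetylated histone tails loosen the contact of DNA with the nucleosome and are read by bromodomain proteins, so acetylation is as a rule a mark of active promoters and enhancers. Vorinostat is a hydroxamate that binds the zinc ion in the active site of the class I and class II enzymes. Drugs of this class are known to arrest the cell cycle, to raise the CDK inhibitor gene CDKN1A and to switch on genes foreign to the tissue.

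Counts on genes numbered 20931921 and 21020292 in the vehicle libraries and 19069450 and 23060018 in the vorinostat libraries, 85.1% to 88.1% of the unique alignments of each of the 8 libraries. A count was found for 15158 and 15143 genes in vehicle and for 16506 and 16592 genes in vorinostat. Levels are given as CPM, the count of a gene relative to the total of its library scaled by TMM, and they describe shares of each library, since the labels name no RNA standard. ESR1 and PGR, the hormone receptor genes that a triple negative line lacks, had 0 counts in both vehicle libraries. ERBB2 had 96.1 and 102 CPM in vehicle and 15.8 and 14.8 CPM in vorinostat. VIM, FN1 and CDH2, which mark mesenchymal cells, were present in all 4 libraries, whereas the leukocyte marker PTPRC stayed between 0.411 and 0.708 CPM. Summed over 15 genes of liver and gut, the level was 5.85 and 2.71 CPM in vehicle and 28.7 and 8.42 CPM in vorinostat, and 0 of its 6 tested members were called. Some of these transcripts were uneven within a group. COL2A1, a cartilage collagen, had 229 counts in vorinostat library 1 and 4 in library 2, CDH17, an intestinal cadherin, had 107 and 2, and ALB (serum albumin) had 0 and 57. These genes were not called, and the part of such traces in the low-level genes below was not tested.

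Vorinostat changed 4123 of 13694 tested genes (30.1%) by more than 1 on the log2 scale in either direction, with an adjusted p below 0.01 (quasi-likelihood test in edgeR, p values adjusted by Benjamini and Hochberg). Of the tested genes 2295 were higher (16.8%) and 1828 were lower (13.3%), so 55.7% of the calls were rises. In these bulk libraries a change in the number of expressing cells and a change in RNA per cell cannot be told apart. The median log2 fold change over all tested genes was 0.03. It was 2.02 among the genes called higher and -1.49 among those called lower, and 426 genes rose by more than 4 on the log2 scale whereas 31 fell by more than 4. The called genes took up different shares of the libraries. Genes called higher held 6.07% of the counts in vehicle and 18.9% in vorinostat, and genes called lower held 18.5% and 6.73%. In every one of the 4123 genes both vorinostat libraries lay on the same side of both vehicle libraries. With 2 libraries in each group a gene that passes both thresholds can hardly do otherwise, so this adds no support to the calls. The share over all tested genes is not given here. The SD over genes of the log2 difference between libraries of a group was 0.226 in vehicle and 0.213 in vorinostat, at an added 0.5 CPM.

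**Figure D1:**
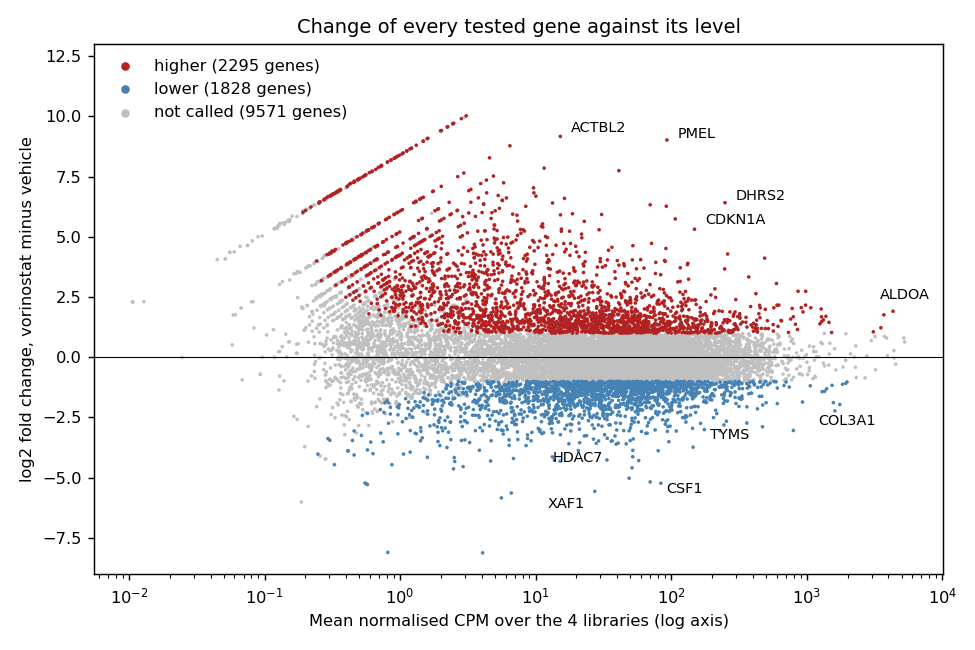
Each point is a tested gene, with its mean normalised CPM over the 4 libraries on a log axis and its log2 fold change under vorinostat on the other axis. The 2295 genes called higher are red, the 1828 called lower are blue and the rest grey, and the slanted lines on the left are genes with 0 or a few counts in vehicle.

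Rises were most frequent among genes of low level. When the tested genes were divided into 10 groups of equal size by their mean CPM over the 4 libraries, 34.0% of the second lowest group (1 to 3.78 CPM) rose and 10.5% fell. From the fourth group (9.7 to 17.9 CPM) upward falls were more frequent than rises in every group, with 18.6% higher and 18.8% lower there and 10.7% higher and 11.2% lower in the highest. The filter on low counts keeps a gene through the group where it is high, and the lowest groups are touched by it. Protein-coding genes numbered 12684 of the tested genes, with 17.0% higher and 13.7% lower. Long noncoding RNAs numbered 197, with 14.7% higher and 12.2% lower, and the 234 pseudogenes had 8.97% and 7.69%.

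**Figure D2:**
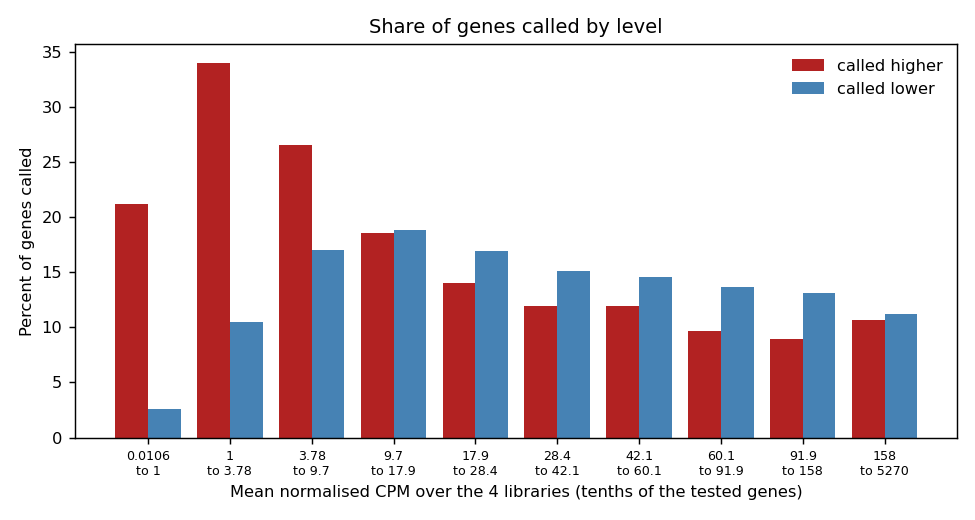
Bars give the percent of genes called higher (red) and lower (blue) in each of 10 equal groups of the tested genes, ordered by mean normalised CPM over the 4 libraries. The red bar is the taller in the 3 lowest groups and peaks at 34.0%.

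The effect of vorinostat was measured again by comparing the combination with EC359, in 4 libraries that share none with vehicle and vorinostat. This second comparison called 4620 of the 13694 genes (33.7%), 2712 higher and 1908 lower. The same direction was called in both comparisons for 3321 genes (24.3% of those tested). Both comparisons came from 1 fit of the 8 libraries, so they share the filter and the estimate of the spread. With each comparison fitted on its own 4 libraries, 4529 genes were called under vorinostat alone. In these separate fits 3149 genes had the same direction called in both. Of the 2295 genes called higher under vorinostat alone, 1951 (85.0%) were called higher here too, 0 were called lower and 337 of the other 344 had a log2 fold change above 0. Of the 1828 genes called lower, 1370 (75%) were called lower again and 411 of the 450 without a call had a log2 fold change below 0. Medians in the second comparison were 2.08 for the former and -1.42 for the latter. Across the 13694 genes, which are not independent replicates, Pearson's r of the log2 fold changes was 0.863 and Spearman's rho 0.883. The remaining 8 genes were called in the other direction. These were LOC152225, BFSP1, CXCR7, EPHA4, PCDH18, CDK15, NRXN3 and ARID5B, named after their values were seen. The calls of LOC152225 and CDK15 under vorinostat alone were lost when single libraries were left out, and that of ARID5B was lost with RLE scaling, with DESeq2 and with a minimum of 1 CPM in 2 libraries. EPHA4, an ephrin receptor, had a log2 fold change of -1.70 without EC359 and 1.67 with it, and CXCR7, a chemokine receptor, had -1.78 and 1.62. The difference between both effects passed an adjusted p of 0.01 in 288 genes (2.1%), of which 64 were called higher and 78 lower under vorinostat alone.

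**Figure D3:**
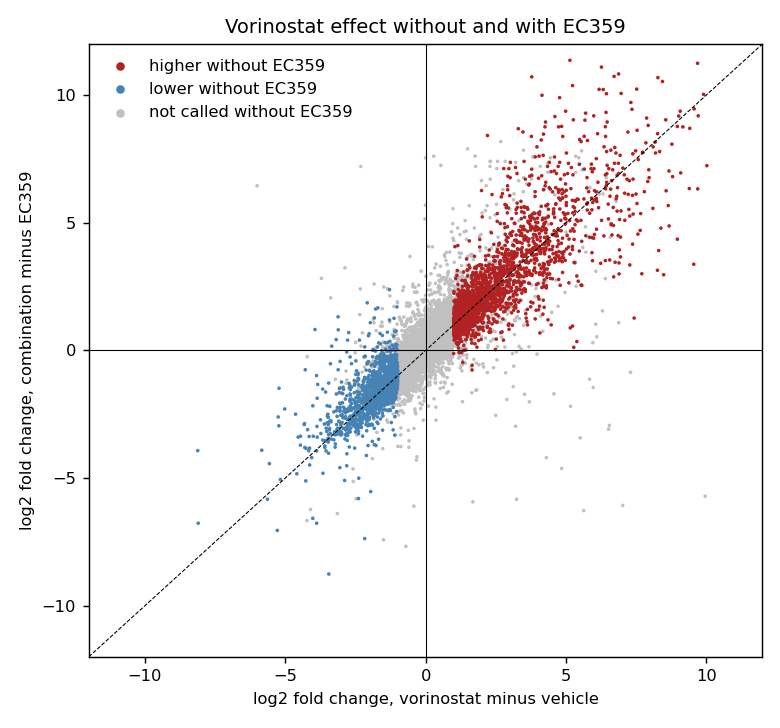
Each point is a tested gene, with the log2 fold change of vorinostat against vehicle on the horizontal axis and of the combination against EC359 on the vertical axis, and the dashed line marks equal values. Red points are the 2295 genes called higher and blue points the 1828 called lower without EC359, and 0 red and 8 blue genes were called in the opposite direction with it.

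The largest rises at an average log2 CPM of at least 3 included several neural genes. PMEL, which forms the amyloid fibrils of melanosomes, had 0.283 and 0.42 CPM in vehicle and 187 and 184 CPM in vorinostat, a log2 fold change of 9.02 ± 0.22 (SE). DHRS2, a short-chain dehydrogenase/reductase, had 5.95 and 5.61 CPM in vehicle and 497 and 488 CPM in vorinostat (6.41 ± 0.15). Both were low or at trace level in each vehicle library and abundant in each vorinostat library. NRXN2, a presynaptic adhesion protein, had 0.283 and 0.467 CPM in vehicle and 86.9 and 76.6 CPM in vorinostat (7.74 ± 0.23). SLC17A7, the transporter that fills synaptic vesicles with glutamate, had 4.63 and 3.22 CPM in vehicle and 212 and 208 CPM in vorinostat (5.74 ± 0.18). NGFR, the low-affinity neurotrophin receptor, had 2.50 and 2.19 CPM in vehicle and 178 and 185 CPM in vorinostat (6.27 ± 0.13). In all 3 genes the vorinostat libraries lay far above both vehicle libraries. C3, the central complement protein, rose by 5.92 ± 0.33, PADI2, an arginine deiminase, by 5.95 ± 0.23, ABAT, which breaks down GABA, by 6.59 ± 0.31 and HYAL1, a hyaluronidase, by 6.82 ± 0.32 on the log2 scale. CNN1, a smooth muscle calponin, rose by 5.91 ± 0.36 and CPA4, a carboxypeptidase, by 6.33 ± 0.26. BAIAP3, a protein of vesicle release, rose by 6.68 ± 0.50 and PHOSPHO1, a phosphatase of bone mineralization, by 6.40 ± 0.44. The adjusted p of these 13 genes lay between 2.01e-08 (NGFR) and 4.92e-06 (BAIAP3; edgeR's quasi-likelihood test), and each was called higher in the combination against EC359 as well. The minimum level was an average over all 8 libraries. A gene near silent without vorinostat thus passed it partly through the combination, so these second calls are not independent of the choice of genes. ACTBL2 and HPCAL4 complete the 15 genes of this group and are given below.

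The 15 largest falls at the same minimum level left little of each transcript. XAF1, a proapoptotic partner of XIAP that interferon induces, had 59.1 and 47.8 CPM in vehicle and 1.39 and 0.893 CPM in vorinostat (-5.57 ± 0.28). CSF1, the macrophage growth factor, had 168 and 158 CPM in vehicle and 4.32 and 4.38 CPM in vorinostat (-5.23 ± 0.15). PRRX1, a homeobox factor of mesenchyme, had 144 and 128 CPM in vehicle and 4.17 and 3.40 CPM in vorinostat (-5.17 ± 0.24). The groups were far apart in each of these genes. FOSL1, the AP-1 subunit Fra-1, had 108 and 87.2 CPM in vehicle and 7.25 and 6.16 CPM in vorinostat (-3.86 ± 0.30), and HDAC7, itself a deacetylase of class IIa, had 63.1 and 64.5 CPM in vehicle and 3.60 and 3.06 CPM in vorinostat (-4.26 ± 0.29). PHF19, a chromatin reader of the Polycomb complex, had 144 and 156 CPM in vehicle and 9.77 and 10.5 CPM in vorinostat (-3.88 ± 0.15). The others were EVI2A (-5.02 ± 0.15), KCTD15 (-4.59 ± 0.19), ZNF469 (-4.31 ± 0.19), the membrane ankyrin gene ANK1 (-4.29 ± 0.17), CYP27C1 (-4.27 ± 0.26), BAIAP2L2 (-4.20 ± 0.22), APOL6 (-4.13 ± 0.20), the growth arrest gene GAS1 (-4.13 ± 0.15) and the calcium sensor gene NCALD (-3.87 ± 0.26). Their adjusted p lay between 8.73e-08 (CSF1) and 6.03e-06 (FOSL1; edgeR). Of these 15 genes, ANK1 was not called in the combination against EC359, where its log2 fold change was -0.76. ANK1 had 113 and 106 CPM in vehicle but 8.49 and 7.66 CPM under EC359 alone, and 4.09 and 5.46 CPM in the combination.

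**Figure D4:**
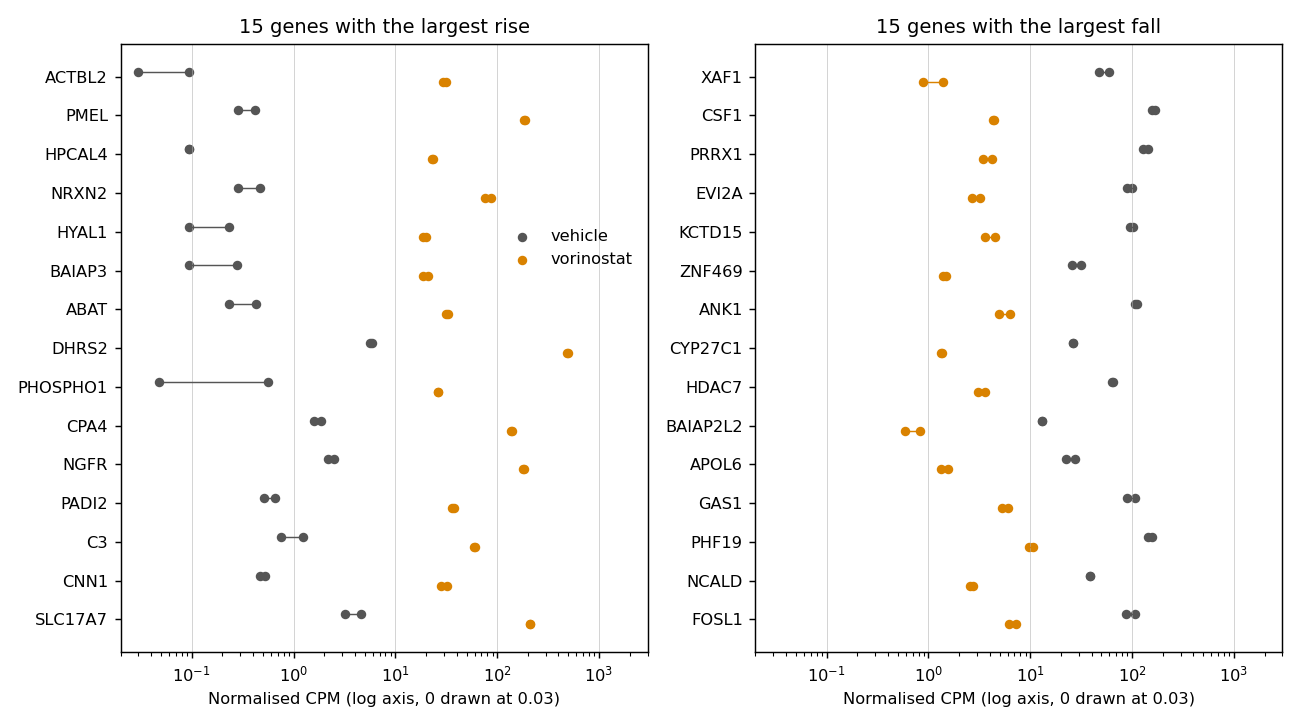
Normalised CPM on a log axis in each of the 2 vehicle libraries (grey) and 2 vorinostat libraries (orange) for the 15 genes with the largest rise and the 15 with the largest fall among called genes at an average log2 CPM of at least 3. A count of 0 is drawn at 0.03 CPM. Genes were picked on the condition that the CPM of the groups did not overlap, so the groups are apart in all 30 by selection. The vehicle libraries differ at a few counts in ACTBL2 and PHOSPHO1.

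Genes under 0.1 CPM in both vehicle libraries and at 1 CPM or more in both vorinostat libraries were counted as switched on, and there were 126 of them. All were called higher, which the rule made nearly certain, so this adds no support. Their mean level under vorinostat was low, between 1.07 and 30.3 CPM with a median of 2.09, and 18 reached 5 CPM. In 38 of them both vehicle libraries had 0 counts. The rule was met by 65 of the 126 between EC359 and the combination, and 96 were at 1 CPM or more in both combination libraries. ACTBL2, an actin-like gene, had 2 and 0 counts in vehicle and 574 and 733 in vorinostat, 648-fold higher (95% interval 179 to 5360). Reads of ACTBL2 can be confused with those of near-identical actins. HPCAL4, a neuronal calcium sensor, had 2 and 2 counts against 451 and 536 (0.0944 and 0.0934 CPM in vehicle and 23.2 and 22.8 CPM in vorinostat). CREB3L3, a transcription factor of liver and gut, had 0 and 1 counts against 268 and 282, 545-fold higher (95% interval 97.5 to 21600). TEX15, a germ cell gene, had 2 and 1 counts against 161 and 211, 123-fold higher (95% interval 41.7 to 599). VWA5B2 was 389-fold higher (95% interval 69.3 to 15400), TMPRSS9, a membrane serine protease, 205-fold higher (95% interval 56.4 to 1700), SEC14L5 185-fold higher (95% interval 51 to 1540), CEACAM22P 166-fold higher (95% interval 45.6 to 1380) and KIAA1543, a microtubule minus-end protein, 105-fold higher (95% interval 35.6 to 512). C7orf57 went from 0.0944 and 0.0934 to 8.33 and 8.04 CPM. These ratios use summed counts with exact 95% intervals that cover counting error only. The mirror rule, switched off, was met by 5 genes, the zinc-finger gene ZCCHC5, the relaxin receptor RXFP1, LOC283299, the orexin receptor HCRTR2 and OVCH2. ZCCHC5 had 169 and 176 counts in vehicle and 0 and 1 in vorinostat, 348-fold lower (95% interval 62 to 13800). RXFP1 had 40 and 29 counts in vehicle and 0 in both vorinostat libraries, at least 23.2-fold lower over the group when 3 counts are put in place of 0. Among the others, HCRTR2 was 15.5-fold lower (95% interval 4.97 to 77.7), LOC283299 48.4-fold lower (95% interval 8.28 to 1950) and OVCH2 46.4-fold lower (95% interval 7.92 to 1870). ZCCHC5, RXFP1 and LOC283299 were called lower in the combination against EC359 too, and HCRTR2 (-1.33) and OVCH2 (-1.48) were not.

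CDKN1A encodes p21, the inhibitor of cyclin-dependent kinases long used as a marker of HDAC inhibition, and lies on the plus strand of chromosome 6 (GRCh37 position 36644237 to 36655114). It had 7.13 and 7.43 CPM in vehicle and 288 and 291 CPM in vorinostat, a log2 fold change of 5.31 ± 0.12 (SE) or 39.8-fold (adjusted p = 2.78e-08, edgeR). The combination raised it by 3.43 over EC359. It is shown with DHRS2, which rose more, and TYMS, thymidylate synthase, which fell by 3.0 on the log2 scale (303 and 321 CPM in vehicle and 40.5 and 37.3 CPM in vorinostat). The 250 bases before the start of each gene, as RefSeq places it on GRCh38.p14, are given 5′ to 3′ with the GC box GGGCGG on either strand in capitals.
CDKN1A, chr6:36678464-36678713, plus strand: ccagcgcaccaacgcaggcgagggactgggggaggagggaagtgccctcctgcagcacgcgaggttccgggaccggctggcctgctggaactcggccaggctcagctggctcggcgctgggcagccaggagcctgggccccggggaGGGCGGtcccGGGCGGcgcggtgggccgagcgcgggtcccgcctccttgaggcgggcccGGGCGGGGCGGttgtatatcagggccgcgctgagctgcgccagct
DHRS2, chr14:23629865-23630114, plus strand: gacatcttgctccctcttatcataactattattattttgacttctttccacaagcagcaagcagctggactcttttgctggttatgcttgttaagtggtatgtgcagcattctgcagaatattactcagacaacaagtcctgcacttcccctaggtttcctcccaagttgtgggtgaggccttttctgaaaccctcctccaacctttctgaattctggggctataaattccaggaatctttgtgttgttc
TYMS, chr18:657403-657652, plus strand: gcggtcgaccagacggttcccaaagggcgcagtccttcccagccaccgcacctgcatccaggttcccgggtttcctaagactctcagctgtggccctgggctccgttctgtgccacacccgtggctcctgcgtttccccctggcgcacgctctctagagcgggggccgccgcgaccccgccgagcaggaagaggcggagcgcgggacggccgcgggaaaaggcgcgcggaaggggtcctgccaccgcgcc
The CDKN1A stretch held 4 GC boxes, which neighbour each other before the start, and 0 matches to TATAAA. DHRS2 held 0 GC boxes and 1 match to TATAAA, and TYMS held 0 of either. A GC box was found in 42.3% of the 27305 promoters of this length in the RefSeq table and TATAAA in 11.1%, both strands searched. Matches are letters only, and no factor binding was measured.

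A list of 7 genes raised and 4 lowered by HDAC inhibitors in earlier work on other cells was examined. All 11 were called in the listed direction, beside 16.8% and 13.3% of all genes tested. The list was chosen with earlier results of these data known, so this count is no independent support for the earlier work. TXNIP, which binds and inhibits thioredoxin, had 53 and 53.8 CPM in vehicle and 927 and 919.8 CPM in vorinostat (4.11 ± 0.12). H1F0, the linker histone of resting cells, had 517 and 501 CPM in vehicle and 2040 and 2047 CPM in vorinostat (2.01 ± 0.12). CLU, a secreted chaperone, had 202 and 196 CPM in vehicle and 802 and 776 CPM in vorinostat (1.99 ± 0.11). Libraries of a group were close to each other in all of them. GLRX, glutaredoxin, rose by 2.63 ± 0.14, HIST2H2BE, a histone, by 3.19 ± 0.20 and GSN, the actin-severing protein gelsolin, by 1.14 ± 0.15. Among the lowered genes, ERBB2 fell by 2.70 on the log2 scale, CCND1, cyclin D1, by 2.02 and CTPS, CTP synthase, by 1.46. GSN was not called in the combination against EC359 (0.22), and the other 10 were.

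Of 11 HDAC genes of classes I, II and IV 2 rose (18.2%), 2 fell (18.2%) and 7 were not called, with a median of 0.11. These shares are close to the 16.8% and 13.3% of all tested genes, against which the counts of the other lists are to be read as well. In class I, HDAC3 rose by 1.28 ± 0.09 (68.2 and 74.1 CPM in vehicle and 176 and 169 CPM in vorinostat), while HDAC1 (0.85), HDAC2 (0.29) and HDAC8 (-0.33) were not called. In class IIa, HDAC5 rose by 1.60 ± 0.12 and HDAC7 and HDAC9 fell by 4.26 and 1.51, HDAC9 without a call in the second comparison (-0.59). HDAC6, the tubulin deacetylase of class IIb, was not called (0.19). Among 11 acetyltransferase genes 4 fell and 1 rose. CREBBP, an acetyltransferase related to p300, had 119 and 95.3 CPM in vehicle and 41.9 and 43.8 CPM in vorinostat (-1.32 ± 0.23), KAT2A fell by 1.18, KAT6B by 1.26 and KAT7 by 1.20, and the coactivator NCOA3 rose by 1.22 ± 0.11. Of 5 bromodomain readers 1 fell, BRD9, by 1.27.

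Of 32 tested histone genes 22 rose and 2 fell, with a median of 1.97. Clustered core histones, whose transcripts mostly end in a stem loop and are made in S phase, gave 16 of 19 higher and a median of 3.03. Of the 25 listed, HIST1H2AH, HIST1H4A, HIST1H4B, HIST1H4C, HIST2H4A and HIST4H4 did not pass the filter. Whether the counted transcripts ended in a stem loop was not tested. HIST1H2BD had 8.40 and 7.33 CPM in vehicle and 87.9 and 87.4 CPM in vorinostat (3.48 ± 0.14), HIST1H1C, a linker histone, had 16.2 and 12.2 CPM in vehicle and 156 and 150.1 CPM in vorinostat (3.42 ± 0.18) and HIST1H3H had 0.755 and 1.40 CPM in vehicle and 27.4 and 27 CPM in vorinostat (4.65 ± 0.43). HIST1H2BK, which was more abundant in vehicle, rose by 1.68 ± 0.10. The variant H2AFZ fell (313 and 413 CPM in vehicle and 156 and 152 CPM in vorinostat, -1.24 ± 0.29). H3F3B, the replication-independent H3.3, rose by 1.25 ± 0.08 and H2AFY, macroH2A, fell by 1.07. Histone genes are near copies of each other, and how the counting split shared reads between them is not given in the sources used here.

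Most of the cell division genes that changed were lower. Of 26 tested G1 control genes 11 fell and 4 rose, and the 4 that rose were all CDK inhibitors. CDKN2B, p15, had 64.7 and 64.3 CPM in vehicle and 367 and 354 CPM in vorinostat (2.48 ± 0.13), CDKN2D rose by 1.65 ± 0.13 and CDKN1C, at 2.98 and 3.19 CPM under vorinostat, by 3.02 ± 0.56. CDKN1B, p27, and CDKN2C, p18, fell by 1.42 and 1.82. On the side of the kinases, CCND1 had 117 and 119.5 CPM in vehicle and 28.1 and 30.4 CPM in vorinostat, CDK6 fell by 1.70, CDK4 by 1.16 and the phosphatase CDC25A by 1.62. In the RB and E2F group E2F3, E2F5, E2F7 and E2F8 fell, by 1.25 (E2F7) to 1.58 (E2F3), and 0 of 10 rose.

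DNA replication had 19 of 45 genes lower and 1 higher, with a median of -0.91. MCM3 of the replicative helicase had 372 and 371 CPM in vehicle and 112 and 115 CPM in vorinostat (-1.71 ± 0.08), MCM5 fell by 1.41 and the GINS subunit GINS3 by 1.73. POLE2, a subunit of polymerase epsilon, fell by 1.80, and DNMT1, the maintenance DNA methyltransferase, by 1.11. PCNA, the sliding clamp, was not called (-0.24). In nucleotide supply TYMS was joined by RRM1 (fell by 1.13) and DTYMK (1.55). TK1, the thymidine kinase of the salvage route, went the other way (139.6 and 165 CPM in vehicle and 330.4 and 318 CPM in vorinostat, 1.09 ± 0.21).

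Of 49 genes of G2 and mitosis 17 were lower and 1 higher, with a median of -0.83. FOXM1, the transcription factor of mitotic genes, had 511 and 460.1 CPM in vehicle and 157 and 144 CPM in vorinostat (-1.69 ± 0.15), MKI67, the proliferation marker Ki-67, had 529 and 438 CPM in vehicle and 148 and 149.6 CPM in vorinostat (-1.70 ± 0.23), and the kinesin KIF23 had 178 and 167 CPM in vehicle and 51.3 and 52.5 CPM in vorinostat (-1.73 ± 0.10). PLK1 fell by 1.22 and separase, ESPL1, by 1.70. Others changed by less. AURKA (365 and 354 CPM in vehicle and 214 and 208 CPM in vorinostat, -0.77 ± 0.08), CCNB1 (-0.95 ± 0.15) and KIF2C (-0.74 ± 0.12) were not called. The gene that rose was UBE2S, an ubiquitin-conjugating enzyme of the anaphase-promoting complex (61.9 and 70.5 CPM in vehicle and 194 and 186 CPM in vorinostat, 1.52 ± 0.12), and it was not called with EC359 present (0.90). DNA repair followed the same direction, with 13 of 40 genes lower and 0 higher and a median of -0.70. FANCL, a ubiquitin ligase of the Fanconi anemia pathway, had 24.6 and 22.4 CPM in vehicle and 4.99 and 6.55 CPM in vorinostat (-2.02 ± 0.24), TOPBP1 fell by 1.60, BRCA1 by 1.28 and CHEK1 by 1.15.

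Among 26 tested p53 target genes 10 rose and 2 fell, with a median of 0.85. Beside CDKN1A, BTG2, an antiproliferative gene, rose by 2.29 ± 0.20, PERP by 1.96 ± 0.18, the kinase gene PLK3 by 1.76 ± 0.24 and SESN2, sestrin 2, by 1.47 ± 0.11. MDM2 (-0.79), BAX (0.12) and BBC3 (0.94) were not called. PHLDA3 and XPC fell, by 1.68 and 1.24. GADD45A, which the study names, had 32 and 34.9 CPM in vehicle and 62.5 and 60.2 CPM in vorinostat (0.88 ± 0.10) and lay under the fold threshold. Of 38 tested apoptosis genes 9 rose (23.7%) and 4 fell (10.5%), near the 16.8% and 13.3% of all genes, with a median of 0.25. Of the 8 BH3-only genes, which start the mitochondrial route, 4 rose and 1 fell. BMF had 1.79 and 2.38 CPM in vehicle and 19.4 and 17.4 CPM in vorinostat (3.13 ± 0.23), BCL2L11 (BIM) had 14.9 and 12.3 CPM in vehicle and 50.3 and 53.8 CPM in vorinostat (1.94 ± 0.15) and PMAIP1 (NOXA) had 3.35 and 3.60 CPM in vehicle and 9.93 and 11.6 CPM in vorinostat (1.63 ± 0.17). BIK had 0 counts in vehicle and 34 and 27 in vorinostat, at least 20.2-fold higher by the same floor. BID fell by 1.93 (37.1 and 39.7 CPM in vehicle and 10.2 and 9.90 CPM in vorinostat). Of the death receptors TNFRSF10B (DR5) rose by 1.52 ± 0.14 (76.5 and 78.6 CPM in vehicle and 222 and 223 CPM in vorinostat), while TNFRSF1A and CFLAR, the caspase-8 inhibitor FLIP, fell by 1.20 and 1.82. CASP9 rose by 2.05 ± 0.16. Of the 4 inhibitor proteins 0 were called, and among the guardians BCL2 (-0.19), BCL2L1 (-0.69) and MCL1 (0.30) were not called while BCL2A1 rose from 0.378 and 0.28 to 1.39 and 1.66 CPM.

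The LIF and IL6 family, the subject of the study, had 6 of 23 tested genes higher (26.1%) and 4 lower (17.4%), beside 16.8% and 13.3% of all genes. LIFR, the receptor of leukemia inhibitory factor, had 23.4 and 28 CPM in vehicle and 80.3 and 81 CPM in vorinostat, a log2 fold change of 1.65 ± 0.12 (adjusted p = 4.58e-06, edgeR). IL6ST (gp130), the signalling chain it shares with other receptors, had 225 and 212 CPM in vehicle and 624 and 646 CPM in vorinostat (1.54 ± 0.11). Both receptor chains were higher in each vorinostat library than in either vehicle library, and OSMR, the oncostatin M receptor, fell by 1.03. The ligand LIF fell (25.3 and 21.2 CPM in vehicle and 5.61 and 4.80 CPM in vorinostat, -2.16 ± 0.13), as did CLCF1 (12.2 and 11.4 CPM in vehicle and 0.926 and 0.935 CPM in vorinostat, -3.66 ± 0.24), and IL6 rose (5.33 and 5.42 CPM in vehicle and 12.3 and 11.2 CPM in vorinostat, 1.13 ± 0.13). The ligand genes OSM and CNTF had at most 3 counts in any of the 4 libraries. SOCS3, the feedback inhibitor, rose by 1.15 ± 0.12, STAT5B fell by 1.64, and STAT3 had 242 and 247 CPM in vehicle and 395 and 397 CPM in vorinostat (0.70 ± 0.09) and was not called.

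Growth factor receptors had 6 of 19 tested genes lower and 3 higher. EGFR had 218 and 203 CPM in vehicle and 48 and 50.6 CPM in vorinostat (-2.09 ± 0.17), EPHA2 fell by 2.02, AXL by 1.49 and the ligand NRG1 by 2.46. Against these, ERBB3 rose from 0.897 and 0.841 to 10.5 and 10.5 CPM (3.59 ± 0.22) and FGFR4 from 18.3 and 18.8 to 104 and 102 CPM (2.48 ± 0.19). Of 29 genes of ERK output and the immediate early response 15 rose and 3 fell, with a median of 1.04. FOS had 12.7 and 9.76 CPM in vehicle and 98.4 and 105 CPM in vorinostat (3.18 ± 0.13), DUSP1, a phosphatase of MAP kinases, had 9.72 and 11.8 CPM in vehicle and 177 and 162 CPM in vorinostat (3.98 ± 0.13), and IER3 had 55.9 and 56.1 CPM in vehicle and 333 and 339 CPM in vorinostat (2.58 ± 0.08). JUNB rose by 1.65 ± 0.08, JUND by 1.51 ± 0.14 and ATF3 by 2.28 ± 0.12, in contrast with FOSL1 and with the ERK phosphatase DUSP4, which fell by 1.42. In the TGF-beta and BMP list 7 of 32 rose (21.9%) and 6 fell (18.8%), close to the 16.8% and 13.3% of all genes. ID1, ID2 and ID3, inhibitors of basic helix-loop-helix factors, rose by 1.62 ± 0.12, 1.37 ± 0.10 and 1.28 ± 0.13, and BMP6 rose from 0.567 and 1.12 to 16.1 and 16.9 CPM. SMAD3 fell by 2.13, SMAD1 by 1.62 and the receptor BMPR1B by 2.36.

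Few genes of protein synthesis and respiration were called. Of 73 tested cytosolic ribosomal protein genes 0 were called, with a median of 0.06, although single members lay between -0.65 (RPL6) and 1.5 (RPS27). Of 59 respiratory chain genes 3 rose and 1 fell, with a median of 0.00. Among 33 nucleolar genes 4 fell and 1 rose, and UBTF, the RNA polymerase I factor UBF, had 268 and 240.1 CPM in vehicle and 36 and 30.0 CPM in vorinostat (-2.95 ± 0.17). In the MYC network 4 of 12 tested genes rose and 0 fell, of which MXD1, a MYC antagonist, had 4.44 and 3.88 CPM in vehicle and 31.2 and 30.4 CPM in vorinostat (2.89 ± 0.25).

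In glycolysis more genes rose than fell without EC359. Of 22 glycolysis genes 8 rose and 1 fell, with a median of 0.84. In the combination against EC359 the median of these 22 was -0.10, and 5 of the 8 were called higher. ALDOA, aldolase, had 1777 and 1853 CPM in vehicle and 6861 and 6789 CPM in vorinostat (1.91 ± 0.07), the glucose transporter SLC2A3 had 95.1 and 96.3 CPM in vehicle and 512 and 493 CPM in vorinostat (2.39 ± 0.08), and ALDOC had 0.283 and 0.654 CPM in vehicle and 9.67 and 11 CPM in vorinostat (4.45 ± 0.35). TPI1 rose by 1.55 ± 0.13 and LDHA by 1.06 ± 0.11, while LDHB, the other lactate dehydrogenase subunit, fell by 1.24 and GAPDH lay under the fold threshold (3743 and 3826 CPM in vehicle and 6696 and 6477 CPM in vorinostat, 0.80 ± 0.07). In the hypoxia response 4 of 16 rose, led in level by BNIP3 (1.75 ± 0.15) and ANGPTL4 (21.1 and 22.5 CPM in vehicle and 149.8 and 156 CPM in vorinostat, 2.81 ± 0.13). The genes of sterol synthesis had 2 of 20 higher and 0 lower, and those of sterol uptake and sensing 6 of 13 higher. SREBF1, the lipid transcription factor, had 349.8 and 354 CPM in vehicle and 1462 and 1475 CPM in vorinostat (2.06 ± 0.09), but with EC359 present its change was 0.77 and was not called. INSIG1 rose by 1.80 ± 0.10 and the acyl-CoA synthetase ACSL3 by 2.16 ± 0.12, and ELOVL6, a fatty acid elongase, fell by 2.04.

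Of 28 tested metallothionein and antioxidant genes 14 rose and 2 fell, with a median of 1.42. SRXN1, sulfiredoxin, had 109.6 and 123 CPM in vehicle and 718 and 733 CPM in vorinostat (2.64 ± 0.11), HMOX1, heme oxygenase 1, had 402 and 429.6 CPM in vehicle and 1743 and 1710 CPM in vorinostat (2.05 ± 0.15), and TXNRD1 had 298 and 317 CPM in vehicle and 1243 and 1260 CPM in vorinostat (2.03 ± 0.09). These 3 are known targets of NRF2, and KEAP1, its inhibitor, fell by 1.27. GCLC rose by 2.22 ± 0.11, MT1X, a metallothionein, by 2.51 ± 0.34 and the zinc exporter SLC30A1 by 2.85 ± 0.14. GPX1 fell by 1.37. Of 56 stress genes 12 rose and 5 fell, with a median of 0.04, and the 30.4% called were like the 30.1% of all tested genes. HSPA5 (BiP), the main chaperone of the endoplasmic reticulum, had 1678 and 1700 CPM in vehicle and 5696 and 5732 CPM in vorinostat (1.76 ± 0.08), CHAC1 had 15.9 and 17.6 CPM in vehicle and 114 and 114 CPM in vorinostat (2.77 ± 0.14), and XBP1 had 121 and 133 CPM in vehicle and 28.6 and 24.9 CPM in vorinostat (-2.25 ± 0.14). In the cytosol the inducible HSPA1A and HSPA1B, near-identical genes, rose by 2.19 ± 0.11 and 2.44 ± 0.18, whereas the constitutive HSPA8 fell by 1.08. NUPR1 fell by 3.59 (34.7 and 30.1 CPM in vehicle and 2.93 and 2.47 CPM in vorinostat). Lysosome and autophagy genes had 12 of 38 higher and 0 lower, among them NEU1, a sialidase (174 and 178 CPM in vehicle and 735 and 725 CPM in vorinostat, 2.05 ± 0.08), PSAP (1.48 ± 0.10), TFEB, the lysosomal transcription factor (1.73 ± 0.22), and GABARAPL1 (0.567 and 0.374 CPM in vehicle and 13 and 14.8 CPM in vorinostat, 4.87 ± 0.36).

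The listed collagen genes fell or were not called. Of the 16 tested collagen genes of the list 6 fell and 0 rose, with a median of -0.78. COL5A3, a collagen gene outside the list, was switched on. It had 0 counts in both vehicle libraries and 4.835 and 4.974 CPM in vorinostat. COL3A1 had 2586 and 2724 CPM in vehicle and 567 and 568 CPM in vorinostat (-2.23 ± 0.14), COL5A2 had 2818 and 2755 CPM in vehicle and 706 and 725 CPM in vorinostat (-1.96 ± 0.08), and SERPINH1 (HSP47), the collagen chaperone, had 1395 and 1443 CPM in vehicle and 169.8 and 175 CPM in vorinostat (-3.04 ± 0.09). The crosslinking enzymes LOX and LOXL1 fell by 1.43 and 2.37, fibrillin, FBN1, by 1.73 and the membrane protease MMP14 by 2.81. The matricellular genes CYR61 (1.70 ± 0.09) and CTGF (1.35 ± 0.08) rose, as did PLOD2 (1.88 ± 0.08). COL1A1 was not called (0.05). Actin and SRF genes had 6 of 19 lower and 2 higher, with ZYX (zyxin) falling by 2.60, TPM4 by 2.14 and TPM1 by 2.06. Tubulin genes went in both directions, since TUBB, the most abundant in vehicle, fell (2571 and 2447 CPM in vehicle and 1167 and 1138 CPM in vorinostat, -1.12 ± 0.08) whereas TUBB4 (38.8 and 33.6 CPM in vehicle and 463 and 455 CPM in vorinostat, 3.66 ± 0.24), TUBB3 (1.68 ± 0.11), TUBA1A (2.10 ± 0.16) and TUBA4A (2.96 ± 0.19) rose. Reads of related tubulins can be shared.

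Of 13 tested mesenchymal genes 2 rose (15.4%) and 4 fell (30.8%), beside 16.8% and 13.3% of all genes. VIM, vimentin, had 2166 and 2056 CPM in vehicle and 4965 and 4888 CPM in vorinostat (1.22 ± 0.07) and SNAI1, the transcription factor Snail, had 2.97 and 3.08 CPM in vehicle and 66.5 and 65.3 CPM in vorinostat (4.44 ± 0.17), whereas ZEB2 fell by 2.43, TWIST2 fell by 2.54 and CDH11 fell by 1.64. Of 22 tested epithelial genes 7 rose (31.8%) and 0 fell. Several were at trace level in vehicle, and of all genes in the lowest and second lowest level groups 21.2% and 34.0% rose. Of the 7 epithelial rises 4 were called in the combination against EC359 too. JUP, plakoglobin, had 1.65 and 1.26 CPM in vehicle and 58.6 and 55.9 CPM in vorinostat (5.29 ± 0.21), TJP3, a tight junction protein, had 0.142 and 0.14 CPM in vehicle and 18.6 and 19.7 CPM in vorinostat (7.03 ± 0.35), and CLDN1 had 62.5 and 59.3 CPM in vehicle and 137 and 140.3 CPM in vorinostat (1.19 ± 0.14). CDH1, E-cadherin, was not called, at 0.283 and 0.234 CPM in vehicle and 2.21 and 0.468 CPM in vorinostat. KRT8 and KRT18 were not called either. EPCAM, at 4.27 and 2.13 CPM under vorinostat, was called (4.22 ± 0.99), but not in the combination against EC359. The part of the uneven gut and liver traces in these low levels was not tested. Summed over the 30 epithelial genes the level was 193 and 171 CPM in vehicle and 384 and 366 CPM in vorinostat, a rise to which CLDN1 and JUP contributed. Over the 14 listed mesenchymal genes the sum was 9390 and 8760 CPM in vehicle and 9350 and 9400 CPM in vorinostat.

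Interferon-stimulated genes went in both directions, 9 of 32 tested higher and 7 lower with a median of 0.01. OASL had 0.142 and 0.0934 CPM in vehicle and 12.5 and 11.6 CPM in vorinostat (6.61 ± 0.31), BST2 (tetherin) had 0.283 and 0.467 CPM in vehicle and 16.2 and 13.9 CPM in vorinostat (5.30 ± 0.34), and SAMHD1 had 25 and 23.4 CPM in vehicle and 149 and 158 CPM in vorinostat (2.67 ± 0.12). Against these, IFIT3 fell by 4.30 (10.1 and 7.61 CPM in vehicle and 0.463 and 0.425 CPM in vorinostat) and MX2 by 2.16, along with XAF1. In antigen presentation HLA-B rose (3.12 and 2.76 CPM in vehicle and 32.9 and 32.1 CPM in vorinostat, 3.47 ± 0.16), and TAP2, TAPBP and the immunoproteasome genes PSMB8 and PSMB10 fell, by 1.01 (TAP2) to 1.81 (PSMB8). The NKG2D ligands MICA (30.3 and 31.7 CPM in vehicle and 146 and 143 CPM in vorinostat, 2.22 ± 0.09), MICB (2.0 ± 0.12) and ULBP2 (3.46 ± 0.24) rose. RAET1G had 0 counts in vehicle and 46 and 68 in vorinostat, at least 37.7-fold higher. PDCD1LG2 (PD-L2) fell by 4.15, and CD274 (PD-L1) was not called (0.43). NFKB1 fell (55.2 and 47.9 CPM in vehicle and 4.37 and 4.29 CPM in vorinostat, -3.57 ± 0.23) while NFKB2 rose by 1.21 ± 0.10, and of the chemokines CCL20 rose from 0.189 and 0.234 to 9.82 and 9.65 CPM (5.49 ± 0.25) and CXCL5 fell by 1.53.

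Many neuronal genes rose. Of 75 listed genes 51 passed the filter, which a gene silent in vehicle passes only where it is high, and of these 30 were called higher and 1 lower. SYP, synaptophysin, had 6.0 and 5.33 CPM in vehicle and 83.8 and 83.5 CPM in vorinostat (3.88 ± 0.13), MAP2, a dendritic microtubule protein, had 20.2 and 19.9 CPM in vehicle and 141 and 148 CPM in vorinostat (2.85 ± 0.13), and RAB3A had 2.27 and 3.46 CPM in vehicle and 42.9 and 40.9 CPM in vorinostat (3.87 ± 0.24). CHGB, chromogranin B, rose from 0.944 and 0.514 to 19.6 and 21.8 CPM, SYT5 from 0.33 and 0.14 to 14.3 and 14.3, L1CAM from 0.142 and 0.0934 to 11.2 and 11.3 and MAPT (tau) from 0.519 and 1.26 to 16.5 and 14.3. REST, the repressor of such genes, was not called (83.8 and 89.2 CPM in vehicle and 53.2 and 55 CPM in vorinostat, -0.68 ± 0.12), and among its partners RCOR2 rose by 2.26 ± 0.33. Of 75 genes of germ line, muscle, blood, liver and gut 23 passed the filter, 7 rose (30.4%) and 0 fell. The same limit of the filter holds here, so a gene silent in vehicle could hardly be called lower. Of all genes in the lowest and second lowest level groups 21.2% and 34.0% rose. CORO1A, a leukocyte coronin, had 7.03 and 7.43 CPM in vehicle and 71.6 and 68.6 CPM in vorinostat (3.28 ± 0.24) and PIWIL2, a germ line gene, had 0.236 and 0.374 CPM in vehicle and 4.32 and 4.97 CPM in vorinostat (3.91 ± 0.28). Summed over 20 blood genes the level was 56.5 and 51 CPM in vehicle and 153 and 150 CPM in vorinostat, a sum carried by CORO1A and by CD68, which was not called (47.4 and 39.8 CPM in vehicle and 71.8 and 72.7 CPM in vorinostat). PTPRC, given above, and LYZ (0 and 1.73 CPM in vehicle and 0.0514 and 0.128 CPM in vorinostat) were not called either. Over 20 muscle genes the sum was 29.4 and 31.6 CPM and 34.6 and 36.5 CPM. MYOG, the myogenic factor, had 0 counts in all 4 libraries. HOX genes changed in both directions, 8 of 24 tested higher and 7 lower. HOXC8 (3.13), HOXB2 (2.73) and HOXC6 (2.17) fell, and HOXC10 rose by 1.94 ± 0.20. Among hormone receptors NR3C2, the mineralocorticoid receptor, rose by 3.16 ± 0.26, and ESR1 was not called at 0.411 and 0.085 CPM under vorinostat.

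**Figure D5:**
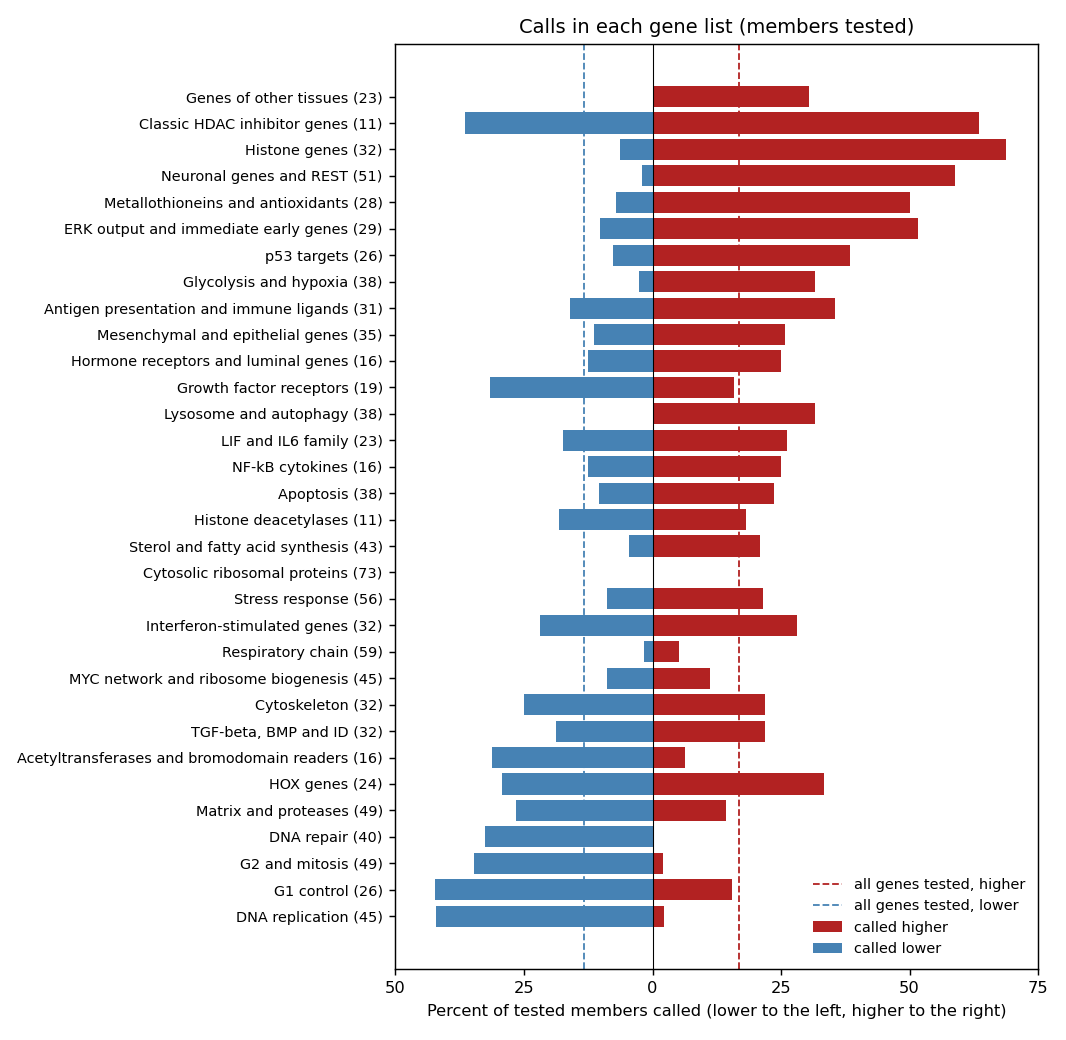
Bars give the percent of the tested members of each of 32 gene lists that were called higher (right, red) or lower (left, blue), with the number tested in parentheses and lists ordered by their median log2 fold change. Dashed lines mark the 16.8% higher and 13.3% lower of all 13694 tested genes.

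After ALDOA, HSPA5, VIM and LDHA, the called genes of highest level that rose were the ferritin genes FTL (782 and 783 CPM in vehicle and 2169 and 2093 CPM in vorinostat, 1.45 ± 0.10) and FTH1 (1.03 ± 0.23), CYR61, TPI1, PSAP and the peroxiredoxin gene PRDX1 (1.68 ± 0.16). Those that fell were led by THBS1, thrombospondin 1 (2665 and 2644 CPM in vehicle and 1243 and 1365 CPM in vorinostat, -1.03 ± 0.08), HSPA8 and TUBB. Also in this group were CAV1, caveolin 1 (2457 and 2479 CPM in vehicle and 680.2 and 659 CPM in vorinostat, -1.88 ± 0.08), ALCAM, an adhesion protein (-1.16 ± 0.11), HNRNPA2B1, an RNA-binding protein (-1.31 ± 0.12), and FSTL1, a secreted follistatin-like protein (-1.41 ± 0.08), beside COL5A2, COL3A1 and LOX. The adjusted p of these 20 genes lay between 2.14e-07 (ALDOA) and 0.00332 (FTH1; edgeR).

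Some named genes were called under vorinostat alone but not in the combination against EC359, beyond those given above. Among lower genes these were LIF (-0.24 with EC359), OSMR (-0.23), NRG1 (-0.80), CDKN1B (-0.63), BRCA1 (-0.87), KAT7 (-0.95), FBN1 (-0.89), CXCL5 (-0.62), HSPA8 (-0.94), ALCAM (-0.92), LOX (-0.73) and THBS1 (0.04). Among higher genes they were H3F3B (0.94), NFKB2 (1.00) and PRDX1 (1.00). A missed call does not show that both effects differed, which was tested by the interaction.

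Whether reads were counted by strand is not given in the sources used here, so reads of a gene and of a coding gene that overlaps it on the opposite strand cannot be told apart. Of the genes named above this touches ABAT (TMEM186), BAIAP3 (TSR3), BMP6 (BLOC1S5-TXNDC5, TXNDC5), CASP9 (CELA2B), CCND1 (LTO1), CDK4 (MARCHF9, TSPAN31), CDKN1B (GPR19), CHEK1 (ACRV1), CLCF1 (RAD9A), E2F5 (RBIS), ERBB2 (MIEN1, PGAP3), ESR1 (SYNE1), EVI2A (NF1), FANCL (VRK2), FOXM1 (ITFG2, RHNO1), FTH1 (BEST1), GLRX (RHOBTB3), GSN (RAB14), H3F3B (UNK) and HDAC5 (G6PC3). It also touches HDAC7 (SLC48A1), HNRNPA2B1 (CBX3, NFE2L3), IFIT3 (LIPA), IL6 (STEAP1B), JUNB (HOOK2), KAT7 (FAM117A), KRT18 (KRT8), KRT8 (KRT18), LOX (SRFBP1), MCL1 (ADAMTSL4), MDM2 (the carboxypeptidase gene CPM), NCOA3 (SULF2), OSMR (RICTOR), PLK1 (ERN2), PLK3 (DYNLT4), PMEL (CDK2), PRDX1 (MMACHC), PSMB8 (PSMB9), RAB3A (MPV17L2) and REST (NOA1). The others are RPL6 (PTPN11), SAMHD1 (TLDC2), SEC14L5 (PPL), SREBF1 (RAI1), STAT5B (STAT5A), THBS1 (FSIP1), TJP3 (APBA3), TMPRSS9 (TIMM13), TNFRSF10B (RHOBTB2), TPI1 (SPSB2), TUBA1A (TUBA1C), TUBA4A (STK16, TUBA4B), TUBB (MDC1), TYMS (ENOSF1), UBE2S (RPL28), VWA5B2 (ALG3) and ZYX (EPHA1).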

How the data were processed

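RNA-seq of BT-549 cells was analysed in 8 libraries, and each was given its group by its treatment label. Per the labels and the study's methods, total RNA was isolated with RNeasy, libraries were made with TruSeq, and single-end 50 bp reads were aligned to hg19 with TopHat2 2.0.8b and counted with HTSeq on RefSeq genes. The deposited values are these raw counts per gene, not normalized by the authors. Rows that name no gene stayed out of library sizes. Counts per library are given with the results. The strand setting is not given in the sources used here.

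Genes were filtered with filterByExpr by group, scaled by TMM and fitted across the 8 libraries with 1 mean per group in edgeR 4.0.16 (quasi-likelihood test, R 4.3.3), which left 13694 of 23228 genes. A gene was called at a Benjamini-Hochberg adjusted p below 0.01 and a change of more than 1 on the log2 scale in either direction. SE is the log2 fold change over the square root of F. The interaction was called at the adjusted p alone.

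Named genes were the 15 largest called changes in each direction at an average log2 CPM of at least 3, the 10 most abundant called genes in each direction, up to 10 genes switched on or off, members of 32 gene lists (1224 genes, 1055 tested) and genes the study names. For the 15 largest changes the average was taken over all 8 libraries, and the CPM of both groups also had to be without overlap. The comparison, its members and the lists were chosen with earlier results of these data known. The scripts were tested on simulated data. Gene coordinates came from GENCODE on GRCh37, where 13018 of 13694 tested symbols matched (95.1%), and promoters from RefSeq on GRCh38.p14, with 10559 tested genes (77.1%), too few for a comparison of promoter sets. Figures were drawn with matplotlib 3.10.9. Alternatives were other scalings, filters and thresholds, DESeq2 1.42.0, fewer libraries and a replicate block. Results of some list members are not reported here.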

Additional observations from a re-analysis of the deposited data

Results flagged for a closer look

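The effect of vorinostat with EC359 present differed from the effect without it in 43 of the named genes, by edgeR's interaction test at an adjusted p under 0.01. Over all 13694 tested genes 288 (2.1%) passed the same test. Some genes were named after their values were seen, so the 43 are no result about the named genes as a set. Values in parentheses are the log2 fold change of the combination over EC359 minus that of vorinostat over vehicle. With 2 libraries in each group a single library far from the others could not be tested for.

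Among the named genes of the LIF and IL6 family the differences were above 0 in LIFR (1.29), IL6ST (0.98), LIF (1.92), IL6 (2.00) and SOCS3 (1.43). LIFR and IL6ST thus had a larger rise with EC359 present, and LIF a smaller fall on the log2 scale. LIF had 119 and 114 CPM under EC359 alone and 95.9 and 101 CPM in the combination, beside 25.3 and 21.2 CPM in vehicle. The genes called in opposite directions had LOC152225 (3.94), BFSP1 (3.10), CXCR7 (3.40), EPHA4 (3.37), PCDH18 (2.48), CDK15 (3.67), NRXN3 (2.38) and ARID5B (2.72). Among genes with the largest changes they were found in CPA4 (3.89), ANK1 (3.53), EVI2A (2.73), CSF1 (2.27) and NGFR (-1.17). CDKN1A had a smaller fold rise with EC359 present (-1.88). Its level was 40.4 and 46.6 CPM under EC359 and 459 and 480 CPM in the combination. Without EC359 the level was 7.13 and 7.43 CPM in vehicle and 288 and 291 CPM in vorinostat. Other differences above 0 were those of CAV1 (0.72), CDKN1B (0.78), CLU (0.96), CTGF (1.72), CXCL5 (0.91), EPHA2 (0.79), FN1 (1.30), FOS (1.79), GADD45A (0.87), HSPA5 (1.46), INSIG1 (1.17), NRG1 (1.66), SESN2 (1.05), SLC2A3 (0.79), SNAI1 (1.88), THBS1 (1.07) and TPM1 (0.82). Other differences below 0 were those of ALDOA (-0.70), AURKA (-0.75), BCL2L1 (-0.84), MMP14 (-1.71), SREBF1 (-1.29), TXNIP (-0.90) and TXNRD1 (-0.95).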

How the results depend on the processing

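The called genes numbered 4019 to 4176 with other scalings, other filters on low counts or DESeq2, 4529 in a fit of the 4 libraries alone and 4597 at an adjusted p under 0.05. Of the 4123 calls, 82.0% to 99% were shared with each alternative that changed the scaling, filter, tool or libraries, and 0 were opposite. Without a fold threshold 7130 genes passed, 3585 higher and 3545 lower, with 6005 in the same direction in the combination against EC359, since the rule then takes smaller changes. Leaving out 1 library gave 3494 to 3612 called, 1851 to 1873 higher, 1631 to 1740 lower and 2884 to 2926 in the same direction. The lone library was then assumed to vary like the other groups. Genes switched on numbered 159 to 190 (190 without vehicle replicate 2) and genes switched off 5 to 9 (9 without vorinostat replicate 1), since 1 library fewer had to meet the rule. At limits of 0.2 and 2 CPM there were 119 on and 2 off. Among the genes with the largest changes or highest levels 9 had an interaction, 8 to 13 with other scalings, filters or DESeq2 and 4 to 5 with 1 library left out (alternatives chosen after seeing the data). The cause was not tested.

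Leaving out a library in turn ended the call of CDK15, CDK4, EPCAM, FTH1, H2AFZ, HCRTR2, KAT6B, LDHA, LOC152225, LOC283299, OSMR, OVCH2, PSMB10, TAP2, THBS1 and TK1 at least once. Another scaling ended those of ARID5B, PSMB10 and TAP2. Of genes that were not called, the log2 fold change of COL1A1 lay between -0.0038 (without vehicle replicate 2) and 0.0844, and the log2 fold change of ALB, which rests on few counts, between -3.14 (without vorinostat replicate 2) and 5.52. The log2 fold change of LYZ, which had 0 CPM in vehicle replicate 1, was -4.15 without vehicle replicate 1, where it was called, and 4.04 without vehicle replicate 2.

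The labels number the libraries of each group, but same-numbered libraries did not deviate together in every pair of groups. The correlation of their deviations was 0.231 for vehicle and EC359, 0.0746 for vehicle and vorinostat, -0.00984 for EC359 and vorinostat, -0.1 for vehicle and the combination, -0.173 for EC359 and the combination and -0.108 for vorinostat and the combination. With the number as a replicate block 4013 genes were called (2214 higher, 1799 lower), 3232 in the same direction with EC359, and 6 genes had an interaction in place of 9.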
